A study of Mus musculus with 12 samples.

Results

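The genes described here are those of the major histocompatibility complex (MHC), called H2 in the mouse, and of its partners in antigen presentation. They were all genes of the deposited table whose symbol starts with H2- together with B2m, Tap1, Tap2, Tapbp, Psmb8, Psmb9, Cd74, Ciita and Nlrc5. This rule used gene names and no measured value, and it gave 54 of the 54532 genes in the table. The set was nevertheless chosen with earlier results of these data known. They comprised 2 classical class I genes, 30 non-classical class I genes, 10 class II genes, 6 genes of the class I machinery, the class II partner Cd74, 2 regulators and 3 other genes named H2-. H2-K2 and H2-Bl were placed with the non-classical class I genes. By annotation 43 of the 54 were protein-coding and 11 were pseudogenes. The 45 genes named H2- lay on chromosome 17 between positions 33974831 and 37483552 of the mouse genome build GRCm38, and Tapbp, Tap1, Tap2, Psmb8 and Psmb9 lay on the same chromosome.

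Class I molecules carry peptides from inside the cell to its surface and show them to CD8 T cells, and they are made by nearly all nucleated cells, hepatocytes included. The immunoproteasome subunits Psmb8 and Psmb9 take part in cutting the peptides, Tap1 and Tap2 form the transporter that moves them into the endoplasmic reticulum, Tapbp (tapasin) links that transporter to the class I chain, and B2m (beta-2 microglobulin) is the light chain of the class I molecule. Class II molecules present peptides from endosomes to CD4 T cells and are made mainly by dendritic cells, macrophages and B cells, with Cd74, the invariant chain, as their chaperone and Ciita as the master regulator of their transcription. Nlrc5 is the corresponding regulator of class I genes.

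Liver RNA came from male C57BL/6J mice that began their diets at 5 weeks of age and were fed for 26 weeks, with 3 mice in each of 4 groups. ND mice received a normal diet, and the control group was given a high-fat diet with no supplement. HYA mice and LA mice received the high-fat diet with 1% 10-hydroxy-cis-12-octadecenoic acid (HYA) or 1% linoleic acid (LA), so that the 3 groups other than ND shared the high-fat diet. HYA is a product of gut lactic acid bacteria that carries a hydroxyl group at the position of a double bond of LA, its parent compound. No source used here says that animals were pooled, and no allele or transgene is named for any group. Whole liver was measured, so for every gene below a change in the number of cells that express it and a change in RNA per cell cannot be told apart, and p-values measure the spread between these mice.

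Expression was given as fragments per kilobase of gene length and per library size (FPKM). The values of each mouse were whole multiples of a step that was read as 1 fragment, and 17169064 to 25220880 fragments per mouse fell on genes. A gene of 2 kb with 3 fragments would then be listed at 0.0607 to 0.0944 FPKM, a floor that covers counting error only. The tests covered the 11083 genes whose mean over the 12 mice reached 1 FPKM, among them 28 of the 54 MHC and antigen presentation genes. The hepatocyte markers Alb, Ttr, Apoa1, Hnf4a and Serpina1a summed to 38341 to 39861 FPKM in ND mice and to 26127 to 29475 in control mice, and 4 of the 5 fell (limma, adjusted p under the threshold of 0.05). FPKM are scaled to a whole library, and the part of this fall in the values of other genes was not tested beyond the rescaling given with each count.

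Stretches of promoter from RefSeq (build GRCm38.p6) are shown for class I and class II genes to display which of 4 short motifs, chosen because motifs like them are known from the promoters of these families, each one holds. All are written 5′ to 3′ on the strand of the gene. Capitals mark the motifs that were found. In H2-K1, H2-D1 and H2-Q7 these were, in order, a kappaB-like motif (GGGATTCCC), an interferon-response-like motif (GTTTCACTT) and the reverse complement of a Y-box-like motif (GATTGG), and in H2-Q10 only the interferon-response-like motif was found. In H2-Eb1 and H2-DMb1 they were an X-box-like motif (AACNGATG) followed by a Y-box-like motif, and in H2-Aa only the Y-box-like motif was found. The stretches are chr17:34000334-34000463 on the minus strand for H2-K1, chr17:35262918-35263052 for H2-D1, chr17:35439016-35439150 for H2-Q7 and chr17:35469908-35470042 for H2-Q10, all 3 on the plus strand. They are chr17:34305762-34305831 for H2-Eb1 and chr17:34153086-34153155 for H2-DMb1 on the plus strand and chr17:34287859-34287928 on the minus strand for H2-Aa.
H2-K1: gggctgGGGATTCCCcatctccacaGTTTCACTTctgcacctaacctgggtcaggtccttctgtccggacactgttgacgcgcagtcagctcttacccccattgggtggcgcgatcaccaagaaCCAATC
H2-D1: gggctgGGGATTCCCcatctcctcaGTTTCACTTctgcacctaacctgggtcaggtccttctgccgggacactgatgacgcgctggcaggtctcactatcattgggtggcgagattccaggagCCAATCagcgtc
H2-Q7: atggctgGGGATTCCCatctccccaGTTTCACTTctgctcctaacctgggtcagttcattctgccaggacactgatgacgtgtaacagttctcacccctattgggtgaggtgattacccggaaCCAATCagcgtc
H2-Q10: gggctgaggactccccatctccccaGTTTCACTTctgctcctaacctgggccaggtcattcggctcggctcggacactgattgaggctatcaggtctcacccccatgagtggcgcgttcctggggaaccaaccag
H2-Eb1: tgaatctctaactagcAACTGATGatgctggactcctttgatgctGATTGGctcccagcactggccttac
H2-DMb1: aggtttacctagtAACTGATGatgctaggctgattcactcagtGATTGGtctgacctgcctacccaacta
H2-Aa: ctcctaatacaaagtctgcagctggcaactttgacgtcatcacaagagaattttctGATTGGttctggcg

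RefSeq gave a window of 300 bases, 250 of them before the transcription start, near 36 of the 54 genes and near 18 of the 28 tested genes. The motifs were searched on both strands in these windows and in all 32851 windows of the table. The kappaB-like letters stood in 4 of the 36 windows (H2-K1, H2-D1, H2-Q6 and H2-Q7) and in 0.353% of all windows, and the interferon-response-like letters stood in 9 of 36 and in 0.399% of all windows. The Y-box-like letters were in 28 of 36 windows, including all 7 class II windows and both classical class I windows, and in 16.1% of all windows, and the X-box-like letters were in 5 of 36 (H2-Eb1, H2-Eb2, H2-DMb1, H2-DMb2 and H2-M10.4) and in 2.32%. In the windows of H2-Q10, H2-M3 and the untested H2-T3 the interferon-response-like letters were found and neither the kappaB-like nor the Y-box-like letters were. These matches describe letters in a window and are no evidence of binding. No window was found under the symbols of H2-T24, H2-Ab1, H2-K2, H2-Q1, H2-T10, H2-Q5, Tap2, Nlrc5 and Cd74, and the window of H2-DMa did not lie near the gene as listed.

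**Figure D1:**
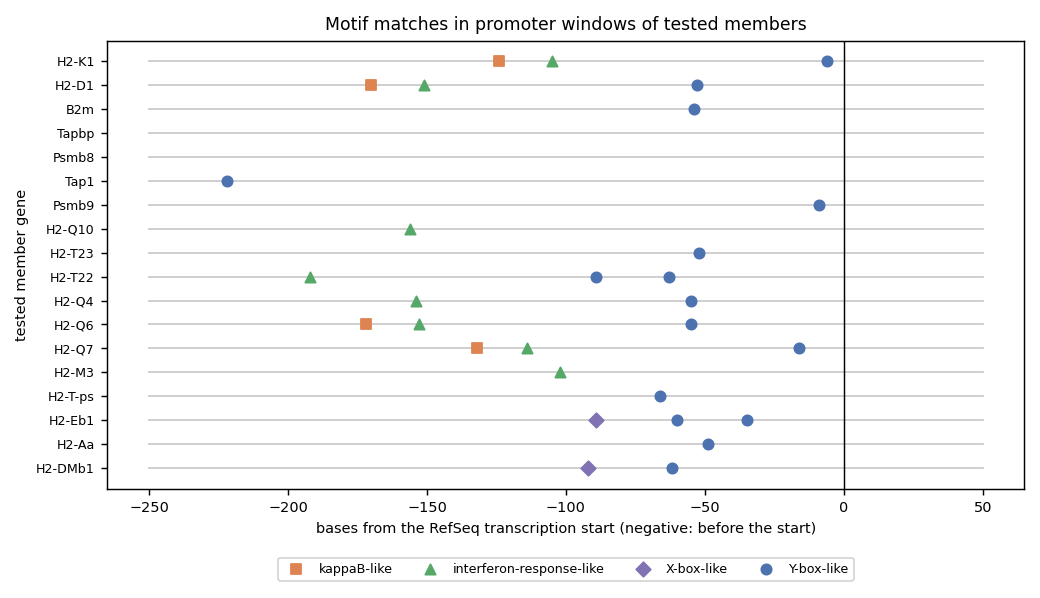
Positions of the 4 motifs in the promoter windows of the 18 tested genes that had a window, in bases from the RefSeq transcription start (grey lines span the window, the vertical line is the start). The kappaB-like and interferon-response-like matches of H2-K1, H2-D1, H2-Q6 and H2-Q7 lie side by side before the start. H2-Q10 and H2-M3 have the interferon-response-like match alone. The class II genes have Y-box-like matches, preceded by an X-box-like match in H2-Eb1 and H2-DMb1.

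Levels in the liver differed widely between the families, as the plot of group means shows. On the FPKM scale, which is per length, B2m had the highest mean over all 12 mice, followed by H2-Q10, H2-K1, H2-D1 and Cd74. H2-Q10 encodes a class I protein that hepatocytes secrete, and its mean of 733 ± 23.7 FPKM (SD, n = 3) in control mice was above that of H2-K1, with 579 ± 22.0. In ND mice it was not above, with 484 ± 9.25 FPKM for H2-Q10 and 506 ± 40.1 for H2-K1. The class II chains H2-Eb1, H2-Ab1 and H2-Aa had control means of 60.9 ± 15.6, 52.3 ± 13.1 and 45.2 ± 10.2 FPKM, which overlap within their SDs.

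**Figure D2:**
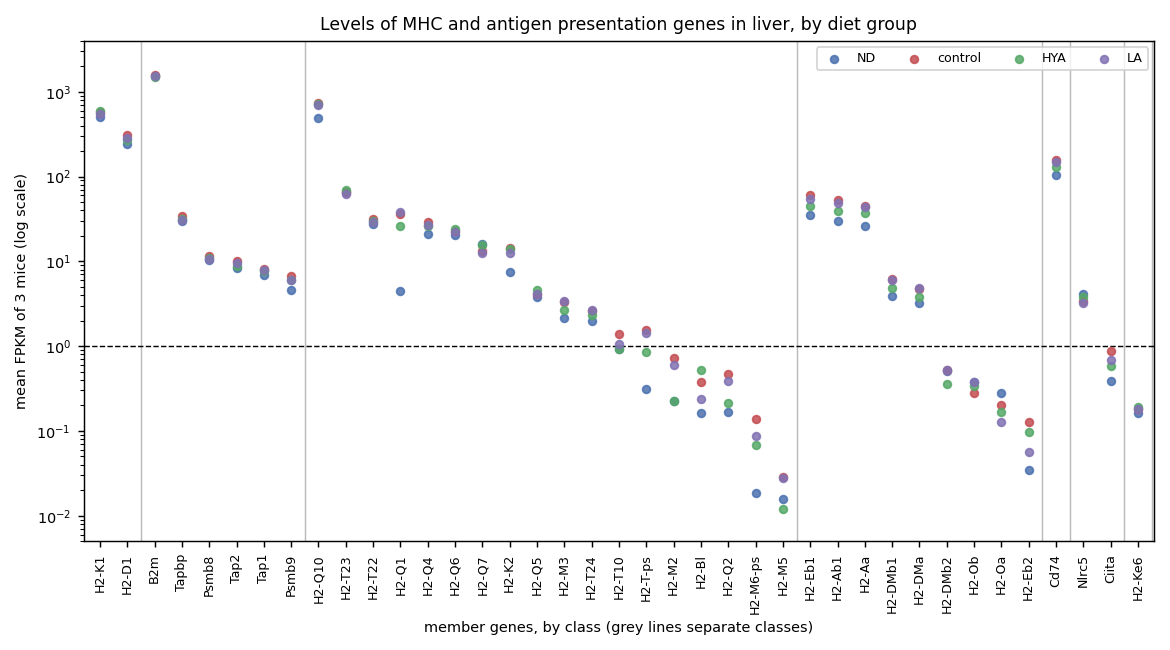
Mean FPKM of 3 mice per group (log scale) for the MHC and antigen presentation genes with a value above 0 in some mouse, ordered by class and level. The dashed line is the 1 FPKM used to choose tested genes, and H2-Q1 stands at 4.52 FPKM in ND mice, 35.9 in control mice and 38.0 in LA mice.

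Of the 54 genes, 26 had a mean under 1 FPKM and were not tested. Among these, 15 were listed at 0 in every mouse, namely 12 non-classical class I genes, H2-Ea-ps, H2-Pa and H2-Pb. H2-Ea-ps stands for the alpha chain of the second class II molecule, I-E, which C57BL/6 mice are known not to make, so the H2-Eb1 transcript that was present has no listed alpha chain transcript beside it. The other 11 were H2-M2, H2-Bl, H2-Q2, H2-M6-ps, H2-M5, H2-DMb2, H2-Ob, H2-Oa, H2-Eb2, H2-Ke6 and Ciita, with values from 0 to 1.15 FPKM. H2-Ke6 encodes a dehydrogenase and no MHC chain, and 61.6% of its stretches of 100 bases also occur in an overlapping gene model on the same strand.

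The comparison of control with ND mice addressed what the high-fat diet did to these genes. Of the 28 tested genes, 15 were higher in control mice and 0 were lower (limma, Benjamini-Hochberg adjusted p under 0.05). Among all 11083 tested genes, 35.3% passed in either direction and 16.2% passed as higher. The median log2 fold change was 0.32 for the 28 genes and -0.04 for all tested genes, on the log2(FPKM + 1) scale that is used for every fold change below. The values of control and ND mice did not overlap for 19 of the 28, 17 higher and 2 lower in control mice, against 45.6% of all tested genes. All 5 tested class II genes, 6 of 13 non-classical class I genes, 3 of 6 class I machinery genes and 1 of the 2 classical class I genes rose, with medians of 0.77, 0.31, 0.20 and 0.27. With an absolute log2 fold change above 1 as a further condition only H2-Q1 passed, against 3.88% of all tested genes. The 1 added to each FPKM shrinks the fold changes of genes at low levels. H2-T-ps in control mice was 4.95-fold ND by the ratio of group means but 0.93 on this scale, and so did not meet the condition. The count of 15 fell to 8 without ND mouse 2 and to 8 without control mouse 1. Without ND mouse 2 the 8 included H2-Q7 as lower in control mice (-0.36, limma, adjusted p = 0.0301), and the others were higher. After rescaling every column to the same sum, as transcript shares (TPM), which moved the median of all genes from -0.04 to 0.17 and the share of higher genes among all calls from 45.9% to 83.8%, 22 genes were higher and 0 were lower.

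The classical class I genes H2-K1 and H2-D1 encode the chains that present peptides to CD8 T cells. H2-D1 (chromosome 17, 35262730 to 35267499) was at 261, 218 and 249 FPKM in ND mice, 306, 292 and 321 in control mice, 290.3, 259 and 263 in HYA mice, and 284, 294 and 288 in LA mice. All control mice were above all ND mice, and the rise of 0.34 ± 0.07 (SE) on the log2 scale passed (limma, adjusted p = 0.0051). The values for H2-K1 were 537, 461 and 520.3 FPKM in ND mice, 554, 594 and 588 in control mice, 625, 581 and 563 in HYA mice, and 522, 578 and 548 in LA mice. Control mice were again all above ND mice, but the difference of 0.19 ± 0.07 did not pass (adjusted p = 0.0559); it passed after TPM rescaling (0.43, adjusted p = 0.000939).

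The ratio of H2-K1 to H2-D1 within a mouse does not depend on how a library is scaled. It was 2.06 to 2.12 in ND mice, 1.81 to 2.04 in control mice, 2.14 to 2.25 in HYA mice and 1.84 to 1.97 in LA mice. The HYA range lay above the ranges of the other 3 groups, and the ND range lay above those of control and LA mice. With 3 mice against 3 an exact two-sided permutation test cannot go below p = 0.1, the value it gave for HYA against control and for HYA against LA, and over the 30 ratio comparisons made the Benjamini-Hochberg adjusted value was 0.188.

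B2m supplies the light chain that every class I molecule needs. It was at 1594, 1464 and 1571 FPKM in ND mice, 1493, 1613 and 1632 in control mice, 1608, 1457 and 1442 in HYA mice, and 1481, 1676 and 1502 in LA mice. The 4 groups overlapped, and control and ND mice differed by 0.03 ± 0.07, with a 95% interval of -0.13 to 0.19 (limma, adjusted p = 0.755), whereas TPM rescaling gave 0.27 (adjusted p = 0.0103). The ratio of B2m to H2-K1 was 2.97 to 3.18 in ND mice, 2.70 to 2.78 in control mice, 2.51 to 2.57 in HYA mice and 2.74 to 2.90 in LA mice, so that all 9 high-fat diet mice lay below all ND mice.

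**Figure D3:**
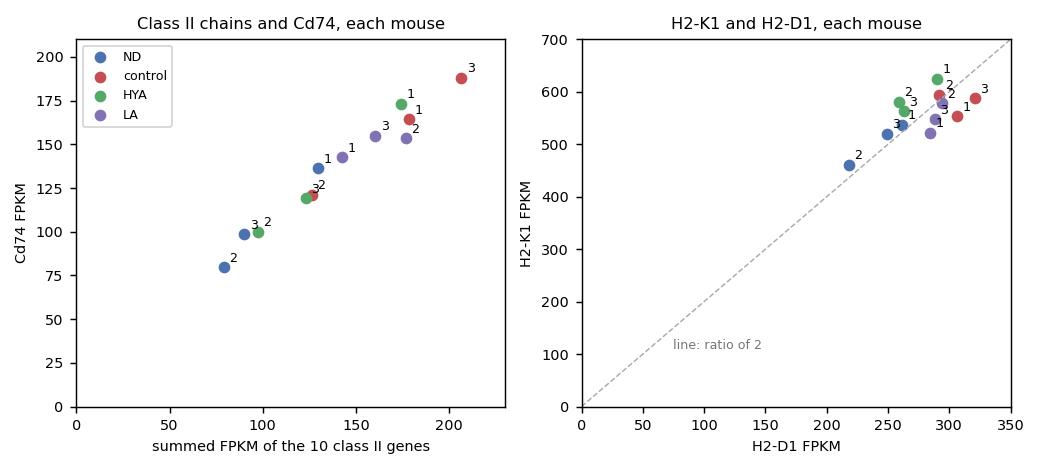
Left, Cd74 FPKM against the summed FPKM of the 10 class II genes in each of 12 mice, with replicate numbers beside the points. Right, H2-K1 FPKM against H2-D1 FPKM in each mouse, with a dashed line at a ratio of 2, where the 3 HYA mice lie above the line and the LA mice below it.

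Among the machinery genes, Tap2 (chromosome 17, 34203527 to 34216321) was at 8.57, 7.74 and 8.83 FPKM in ND mice, 9.91, 10.7 and 10.02 in control mice, 9.47, 8.33 and 8.998 in HYA mice, and 9.09, 9.71 and 10.1 in LA mice. Control mice were above every ND and every HYA mouse, and the rise over ND of 0.26 ± 0.07 passed (adjusted p = 0.0114). Psmb9 rose from a mean of 4.66 ± 0.624 FPKM (SD, n = 3) in ND mice to 6.75 ± 0.781 in control mice (0.46 ± 0.12, adjusted p = 0.0136), and its call was lost without ND mouse 2 (adjusted p = 0.0546). Tapbp rose from 30.2 ± 0.715 to 34.6 ± 1.204 FPKM (0.19 ± 0.06, adjusted p = 0.0300), a call lost without ND mouse 1, ND mouse 2, control mouse 1 or control mouse 2 and in the fit of only the groups compared (adjusted p from 0.0557 to 0.0898). Zbtb22 overlaps Tapbp on the same strand. Of the stretches of 100 bases of Tapbp, 14.8% occur in another gene model, nearly all (14.7%) in the opposite-strand model Gm19412. The value of Tapbp is therefore uncertain. Psmb8 (10.3 and 11.7 FPKM) and Tap1 (6.96 and 8.23 FPKM) had control means above their ND means but did not pass (adjusted p = 0.248 and 0.145).

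Among the 28 tested genes, the largest fold change from ND to control mice was that of H2-Q1, a non-classical class I gene. H2-Q1 (chromosome 17, 35320405 to 35325099) belongs to the Qa region and was at 4.76, 4.67 and 4.14 FPKM in ND mice, 39.1, 33.3 and 35.3 in control mice, 33.5, 24.5 and 21.3 in HYA mice, and 36.4, 37.1 and 40.4 in LA mice. ND mice lay far below all others, and control was 7.94-fold ND by the ratio of group means (log2 fold change 2.74 ± 0.13, adjusted p = 3.8e-07). Of the stretches of 100 bases of H2-Q1, 8.05% occur in another gene, most often in H2-Q2, and how shared fragments were counted is not given in the sources used here.

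H2-Q10 (chromosome 17, 35470089 to 35474563) was at 493, 474 and 485 FPKM in ND mice, 713, 728 and 759 in control mice, 729, 745 and 690.1 in HYA mice, and 723, 717 and 683 in LA mice. All 9 mice on the high-fat diet were above all ND mice, and the spread within each group was small. Control against ND gave 0.60 ± 0.05 (adjusted p = 1.8e-05). The ratio of H2-Q10 to H2-K1 within a mouse was 0.917 to 1.03 in ND mice and 1.22 to 1.29 in control mice, 1.17 to 1.28 in HYA mice and 1.24 to 1.39 in LA mice.

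H2-K2, annotated as an unprocessed pseudogene, was at 5.59, 6.90 and 9.76 FPKM in ND mice, 15.2, 14.4 and 14.1 in control mice, 13.96, 14.5 and 14.04 in HYA mice, and 13.1, 11.6 and 12.7 in LA mice. The high-fat diet groups did not overlap with ND, and control rose by 0.92 ± 0.14 (adjusted p = 0.000524). The pseudogene H2-T-ps was at 0.320, 0.354 and 0.261 FPKM in ND mice, 2.18, 1.27 and 1.18 in control mice, 0.628, 0.827 and 1.10 in HYA mice, and 1.76, 1.05 and 1.43 in LA mice. HYA mice fell between ND and control mice with no overlap on either side, and control rose over ND by 0.93 ± 0.16 (adjusted p = 0.00106). Its values rest on 5 to 50 fragments per mouse, and 4.96% of its stretches of 100 bases occur in H2-Q1. With a mean of 1.03 FPKM over all mice, H2-T-ps reached the level for testing only through control and LA mice. The call for control against ND was also made when no filter on low values was used.

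H2-M3, which presents formylated peptides, rose from 2.16 ± 0.237 FPKM in ND mice to 3.36 ± 0.200 in control mice (adjusted p = 0.0108). The mean of H2-Q4, which encodes a Qb class I chain, rose from 20.8 ± 2.88 to 29.0 ± 2.39 FPKM (adjusted p = 0.0159), a call lost without ND mouse 2 or control mouse 1 (adjusted p = 0.0640 and 0.0641). H2-T23, the Qa-1 molecule that presents leader peptides to NK cell receptors, had means of 66.0 ± 7.65 and 66.6 ± 5.36 FPKM (0.02, 95% interval -0.21 to 0.24).

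H2-Q7, a gene of the Qa-2 molecule, was at 18.1, 14.2 and 16.3 FPKM in ND mice, 11.8, 14.1 and 13.8 in control mice, 16.9, 14.7 and 15.7 in HYA mice, and 11.3, 13.8 and 13.02 in LA mice. Every control mouse was below every ND mouse and every HYA mouse above every control and LA mouse, an order opposite to that of most genes here. The difference of control from ND, -0.27 ± 0.10, did not pass (limma, adjusted p = 0.0625) and was -0.05 after TPM rescaling. It passed as lower with voom on the fragments (-0.29, adjusted p = 0.0491) and without ND mouse 2 (-0.36, adjusted p = 0.0301). Of the stretches of 100 bases of H2-Q7, 12.0% occur in another gene, most often in H2-Q10, whose values were higher in control than in ND mice.

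The remaining tested class I genes did not pass for control against ND. Their means in ND and control mice were 27.9 and 31.5 FPKM for H2-T22, 20.7 and 22.7 for H2-Q6, 3.85 and 4.15 for H2-Q5, 1.99 and 2.57 for H2-T24 and 0.914 and 1.38 for H2-T10. H2-Q5 and H2-T10 are annotated as polymorphic pseudogenes. H2-T22 and H2-T10 share 31.5% and 28.1% of their stretches of 100 bases with another gene, so their separate values are uncertain.

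**Figure D4:**
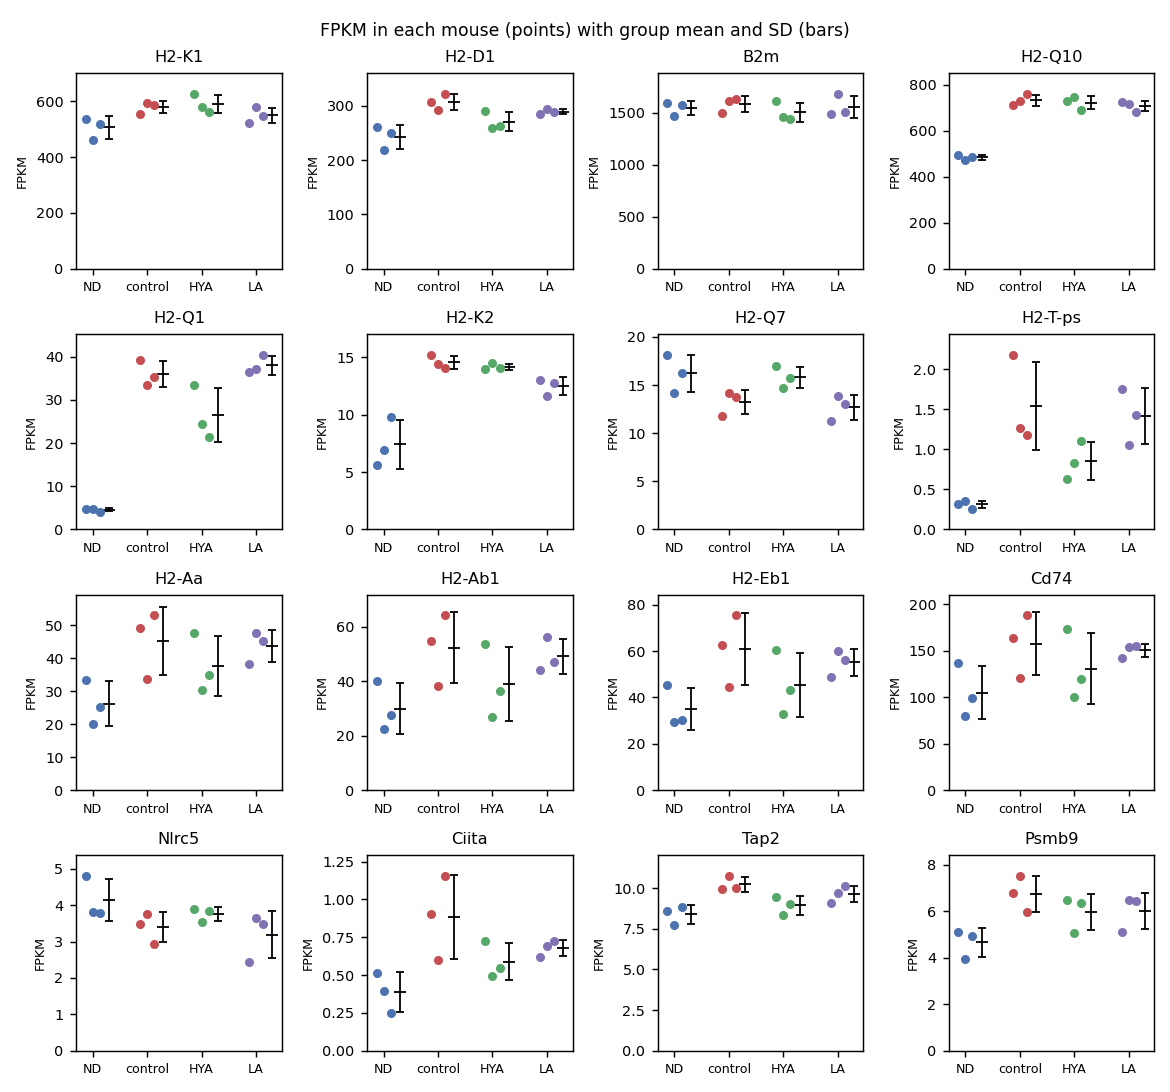
FPKM in each mouse (points) with the group mean and SD (bars) for 16 genes, 3 mice per group, each panel with its own axis from 0. H2-Q10, H2-Q1 and H2-K2 separate ND mice from the other groups, B2m does not, and the class II chains and Cd74 spread widely between mice of the ND, control and HYA groups.

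The class II genes showed the largest class median, with wide spread between mice. H2-Aa, the alpha chain of the class II molecule I-A, was at 33.4, 20.1 and 25.1 FPKM in ND mice, 49.1, 33.7 and 53.0 in control mice, 47.7, 30.2 and 34.9 in HYA mice, and 38.1, 47.7 and 45.1 in LA mice. Its beta chain H2-Ab1 was at 40.1, 22.3 and 27.4 FPKM in ND mice, 54.5, 38.2 and 64.1 in control mice, 53.6, 26.7 and 36.4 in HYA mice, and 43.9, 56.0 and 47.2 in LA mice. Control and ND mice were apart for H2-Aa and overlapped for H2-Ab1, where ND mouse 1 stood above control mouse 2.

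H2-Eb1, the beta chain of I-E, was at 45.4, 29.6 and 30.3 FPKM in ND mice, 62.7, 44.4 and 75.4 in control mice, 60.3, 32.9 and 43.2 in HYA mice, and 48.9, 60.2 and 56.3 in LA mice. ND mouse 1 again lay just above control mouse 2. Against ND, control rose by 0.77 ± 0.22 for H2-Aa, 0.79 ± 0.27 for H2-Ab1 and 0.77 ± 0.24 for H2-Eb1 (limma, adjusted p = 0.0195, 0.0423 and 0.0301).

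H2-DMa and H2-DMb1 encode the DM molecule that loads peptides onto class II. Their means rose from 3.24 ± 0.649 to 4.66 ± 0.510 FPKM and from 3.93 ± 0.745 to 6.18 ± 1.47 FPKM (adjusted p = 0.0414 and 0.0466). The calls of all 5 class II genes were lost when ND mouse 2, ND mouse 3, control mouse 1 or control mouse 3 was left out (limma, adjusted p from 0.0516 to 0.153). With no filter on low values those of H2-Eb1, H2-Ab1, H2-DMb1 and H2-DMa were also lost (adjusted p from 0.0679 to 0.0977). H2-DMa and H2-DMb1 were lost with voom, and H2-Ab1 and H2-DMb1 in the fit of only the groups compared. H2-Ab1, H2-DMa and H2-DMb1 were also lost when any LA mouse, outside this comparison, was left out. The genes of DO, the inhibitor of DM, were H2-Oa and H2-Ob, with group means of 0.127 to 0.279 and 0.278 to 0.379 FPKM, too low to be tested.

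Cd74 was at 136, 79.8 and 98.7 FPKM in ND mice, 164, 121 and 188 in control mice, 173, 100.03 and 119 in HYA mice, and 143, 154 and 155 in LA mice. ND mouse 1 was above control mouse 2, and the difference of 0.59 ± 0.23 did not pass (adjusted p = 0.0675), although it passed after TPM rescaling (adjusted p = 0.0201) and with voom on the fragments (adjusted p = 0.0473). The 10 class II genes together summed to 129.6, 79.1 and 90.1 FPKM in ND mice, 178, 126 and 207 in control mice, 174, 97.5 and 123 in HYA mice, and 143, 177 and 160.3 in LA mice. Within ND, control and HYA mice the order of the 3 mice was the same for this sum and for Cd74, as the scatter of both shows, and within LA mice it was not.

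Markers of cells that carry class II and of other cells were read in the same comparison, and the lists did not all go the same way. Among all tested genes, 16.2% passed as higher and 19.1% as lower. Of the 3 tested among 7 markers of recruited macrophages (Lyz2, Cd68 and Gpnmb), 3 rose, and the 7 summed to 62.1 to 87.7 FPKM in ND mice, 99.96 to 133 in control mice, 81.0 to 105 in HYA mice and 104 to 114 in LA mice. Lyz2, with means of 69.1 FPKM in ND mice and 92.4 in control mice, made up most of this sum. Of the 2 tested among 8 dendritic cell markers, Itgax rose and Zbtb46 had a log2 fold change of 0.06 (adjusted p = 0.532), and the 8 summed to 3.05 to 3.21, 5.56 to 6.68, 4.62 to 4.90 and 5.51 to 6.09 FPKM in the 4 groups in that order. Gpnmb and Itgax reached the level for testing only through control and LA mice. The means of Gpnmb and Itgax were 0.0386 and 0.253 FPKM in ND mice, 2.37 and 2.08 in control mice and 0.859 and 0.927 in HYA mice. Itgax had the largest rise in mean FPKM of the 8 dendritic cell markers, so the sum of these follows it closely. Of 6 Kupffer cell markers 1 rose and 2 fell, with sums of 131 to 207 FPKM in ND mice and 161 to 184 in control mice. No marker of B cells, T cells or NK cells reached 1 FPKM in the mean, and B cell markers summed to 1.77 to 3.07 FPKM in ND mice and 1.38 to 1.85 in control mice. Of 5 markers of sinusoidal endothelium, 2 rose and 0 fell. No marker of these lists was at 0 in all mice, and the part of these cells in the class II values was not tested.

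Nlrc5 and Ciita, the regulators, differed in opposite directions. Nlrc5 (chromosome 8, 94434356 to 94527272) was at 4.80, 3.82 and 3.77 FPKM in ND mice, 3.47, 3.75 and 2.94 in control mice, 3.89, 3.55 and 3.84 in HYA mice, and 2.45, 3.64 and 3.48 in LA mice. All control mice were below all ND mice, and the difference of -0.22 ± 0.12 did not pass (adjusted p = 0.173). Ciita was at 0.513, 0.396 and 0.251 FPKM in ND mice, 0.907, 0.599 and 1.15 in control mice, 0.725, 0.492 and 0.547 in HYA mice, and 0.620, 0.693 and 0.725 in LA mice. Every control and LA mouse was above every ND mouse, but Ciita lay under the level for testing, and its gene overlaps Dexi on the opposite strand. When no filter on low values was used, control against ND gave 0.44 for Ciita (adjusted p = 0.0258). Under the same setting the class I genes H2-M2 and H2-Q2 were also higher (adjusted p = 0.0240 and 0.0300), with ND means of 0.225 and 0.168 FPKM and control means of 0.723 and 0.475.

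Other genes of the same pathways were taken from lists that contain no member of the MHC set. Of 18 other class I pathway genes tested, 0 rose and 9 fell from ND to control mice, with a median of -0.15, against 16.2% of all tested genes called higher and 19.1% called lower. The 3 with the highest means were Azgp1, which has a class I fold (-0.39, adjusted p = 0.00137), the chaperone Calr, which helps to load class I (-0.49, adjusted p = 0.0140), and Pdia3, a disulfide isomerase that takes part in loading class I (-0.37, adjusted p = 0.0259). Of 15 other class II pathway genes tested, 7 rose and 1 fell, with a median of 0.18, and the lysosomal genes Lamp1, Ctsb and Ctsd had the highest means (0.32, 0.27 and 0.60, each of which passed). Of 16 tested interferon-gamma pathway genes, 4 rose and 1 fell, with a median of 0.16, and Iigp1, Jak1 and Igtp, the 3 with the highest means, did not pass. Together 8 of the 15 and 5 of the 16 passed in either direction, beside the 35.3% of all tested genes.

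The comparison of HYA with control mice asked what HYA changed under the high-fat diet. None of the 28 genes passed (limma, 0 higher and 0 lower), against 2.8% of all tested genes. Before adjustment 7 genes had a p under 0.05, against 18.5% of all tested genes, and 5 genes did not overlap between the groups, against 21.6%. The median of the 28 was -0.13, beside 0.02 for all tested genes, and the class medians were -0.08 for classical class I, -0.08 for non-classical class I, -0.30 for class II and -0.12 for the machinery. TPM rescaling moved the median of all genes to -0.09 and the share of higher genes among all calls from 56.1% to 19.5%, and 1 gene, Tap2, was then lower (-0.31, adjusted p = 0.0457).

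H2-Q1 had the lowest p of the 28 for HYA against control. Its means of 26.4 ± 6.30 and 35.9 ± 2.95 FPKM (SD, n = 3) differed by -0.45 ± 0.13 with a 95% interval of -0.74 to -0.16, and the adjusted p was 0.0982. HYA mouse 1, at 33.5 FPKM, was within the control range, and without it the difference was -0.63 (adjusted p = 0.0359). H2-T-ps (-0.44 ± 0.16, adjusted p = 0.157), Tap2 (-0.18 ± 0.07, adjusted p = 0.181), H2-D1 (-0.18 ± 0.07, adjusted p = 0.222) and H2-M3 (-0.26 ± 0.12, adjusted p = 0.262) were lower in all HYA mice than in all control mice, and H2-Q7 (0.24 ± 0.10, adjusted p = 0.240) was higher in all, while none passed.

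All 5 tested class II genes had negative fold changes in HYA against control mice, from -0.25 to -0.44, with adjusted p of 0.384 or more. For H2-Ab1 the 95% interval ran from -1.04 to 0.16, the widest of the 28. HYA and control values overlapped for each class II gene, and HYA mouse 1 was within the control range for all 5. Of the tested macrophage markers in the same comparison, Gpnmb fell (-0.88, adjusted p = 0.0296), while Lyz2 (-0.32, adjusted p = 0.243) and Cd68 (-0.41, adjusted p = 0.384) did not pass. Of the tested dendritic cell markers Itgax fell (-0.67, adjusted p = 0.0304) and Zbtb46 did not pass (0.05, adjusted p = 0.783), and 0 of 6 Kupffer cell markers passed, with 3 above 0 and 3 below. As given above, Gpnmb and Itgax reached the level for testing only through control and LA mice, which limits both calls. Of the 7 macrophage markers 3 were tested, and of the 8 dendritic cell markers 2 were. Among the other class II pathway genes Ctsd fell (-0.26, adjusted p = 0.0333). The part of these cells in the HYA values was not tested. For H2-Q10, by contrast, the difference was -0.02 with an interval of -0.14 to 0.09.

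LA against control gave 0 of 28 genes past the threshold, against 0% of all tested genes, in limma with Benjamini-Hochberg adjustment. Before adjustment 1 gene (Tapbp, -0.15 ± 0.06) had a p under 0.05, against 2.65% of all tested genes, and 2 genes did not overlap (Tapbp and H2-K2, both lower in LA mice), against 7.55%. The median was -0.07, beside 0.00 for all tested genes. The 95% intervals of all 28 genes lay between -0.67 and 0.53.

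**Figure D5:**
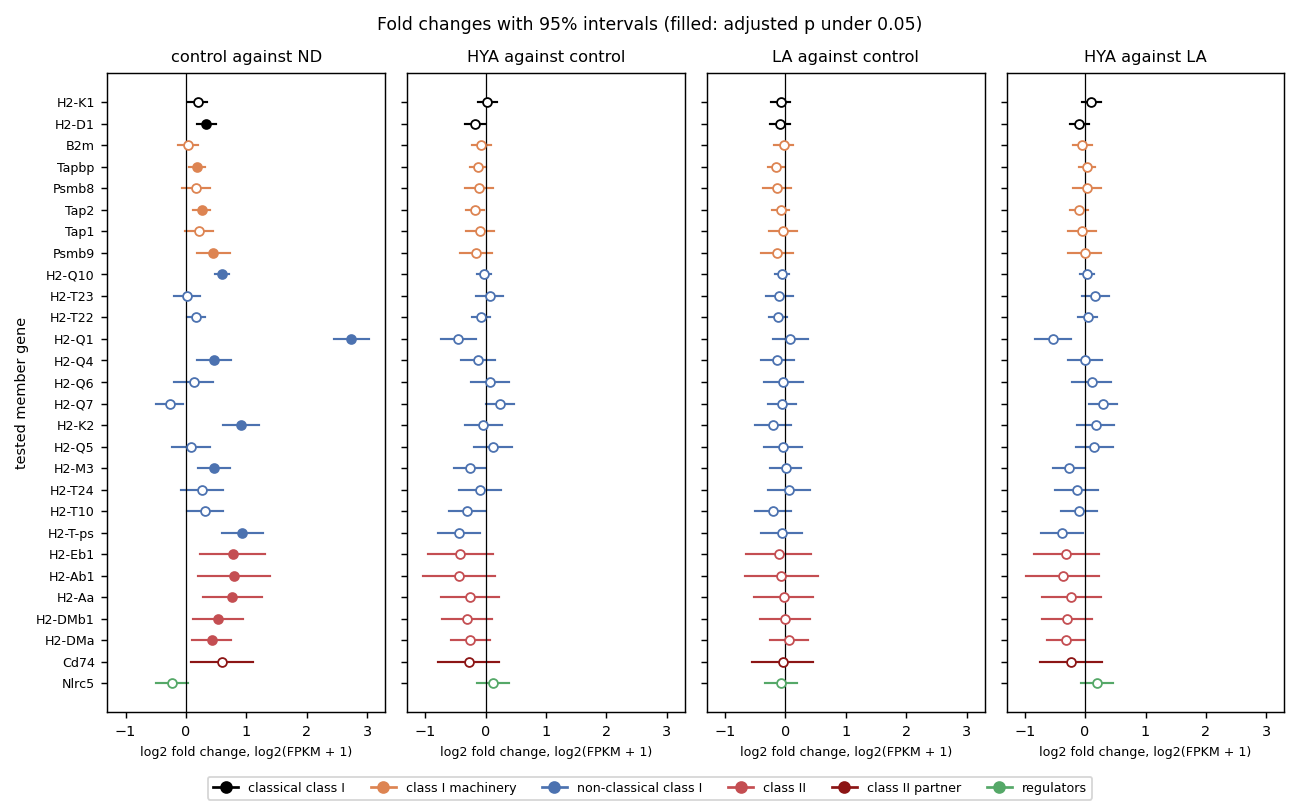
Log2 fold changes on the log2(FPKM + 1) scale with 95% intervals for the 28 tested genes in 4 comparisons, coloured by class. Filled points passed at adjusted p under 0.05, which 15 genes did for control against ND and 0 genes did for HYA against control, LA against control or HYA against LA.

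HYA and LA were given at the same dose for the same time, and the structural change between them, a hydroxyl group in place of a double bond, can be compared directly. Over the 28 genes compared, 0 passed after adjustment over all tested genes, against 0.487% of those. Before adjustment 4 genes had a p under 0.05, against 17.2%, and 4 genes did not overlap, against 25.2%. H2-Q7 and H2-K2 were higher in all HYA than in all LA mice, and H2-Q1 and H2-M3 were lower in all. The largest difference was that of H2-Q1, -0.53 ± 0.13 with a 95% interval of -0.82 to -0.24 (limma, adjusted p = 0.0835). It passed with voom on the fragments (-0.55, adjusted p = 0.0499) and without HYA mouse 1 (-0.71, adjusted p = 0.0436).

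For H2-Q7 the difference of HYA from LA was 0.30 ± 0.10 (adjusted p = 0.173), and for H2-T-ps it was -0.38 ± 0.16 (adjusted p = 0.245). The 3 main class II chains were at -0.23 (H2-Aa), -0.37 (H2-Ab1) and -0.31 (H2-Eb1), with intervals that reached from -0.97 to 0.26. B2m and H2-K1 were at -0.05 (interval -0.21 to 0.11) and 0.10 (-0.06 to 0.26), and the value for H2-K1 became -0.02 after TPM rescaling. The intervals of all 28 genes lay within 1 on the log2 scale, and since a p that misses the threshold does not show equality, the compounds were neither shown to differ nor shown to act alike on these genes. The share of higher genes among all calls was 48.1% here and 18.8% after TPM rescaling.

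Both supplemented groups were also set against ND mice, a comparison that shares the ND mice with the one of control. In HYA mice 3 genes were higher and 0 lower than in ND mice, against 16.6% of all tested genes in either direction and 8.72% as higher, and these were H2-Q1 (2.29), H2-Q10 (0.57) and H2-K2 (0.88). In LA mice 8 genes were higher and 1 was lower, against 31.1% in either direction, 14.4% as higher and 16.6% as lower. The 8 were H2-Q1 (2.82), H2-Q10 (0.55), H2-K2 (0.71), H2-T-ps (0.87), H2-Aa (0.74), H2-DMa (0.48), H2-M3 (0.47) and H2-D1 (0.25), and the 1 was H2-Q7 (-0.33, adjusted p = 0.0335), which no longer passed after TPM rescaling (adjusted p = 0.436). Without 1 mouse the LA count of 9 ranged from 5 (without LA mouse 3) to 13 (without ND mouse 1) and was 6 without ND mouse 2, ND mouse 3 or LA mouse 2. TPM rescaling gave 21 genes for LA and 7 for HYA and, among all calls, moved the share of higher genes from 52.6% to 79.8% for HYA against ND and from 46.4% to 85.4% for LA against ND.

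The class II median against ND was 0.77 in control mice, 0.66 in LA mice and 0.35 in HYA mice, and for non-classical class I it was 0.31, 0.32 and 0.20. No class II gene passed for HYA against ND, where the lowest adjusted p was 0.137, and 2 of 5 passed for LA against ND. Both of these, H2-Aa and H2-DMa, were lost without ND mouse 2, ND mouse 3, LA mouse 2 or LA mouse 3, whereas under TPM rescaling or with the replicate block all 5 passed. These comparisons share the ND mice, and the direct comparisons of HYA with control and with LA given above are the tests of the differences between them, in which no class II gene passed.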

How the data were processed

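Liver RNA of 12 mice was sequenced, and the authors deposited FPKM values of each gene in each mouse as 1 table. The submitters' processing notes name fastp, HISAT2 2.0.5, featureCounts 1.5.0-p3 and the build GRCm38. The annotation release, the use of strand and the treatment of shared reads are not given in the sources used here. The methods name TPM, but the columns summed to 342146 to 429286, so they were used as FPKM. 0 columns of mice were left unused.

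Tests were made in R 4.3.3 with limma 3.58.1 (empirical Bayes with trend, two-sided) on log2(FPKM + 1) in 1 fit of 4 groups, for genes whose mean over the mice reached 1 FPKM, with Benjamini-Hochberg adjustment over 11083 genes. The design foresaw counts or FPKM. Fragments were recovered from the steps of the FPKM, with 100% of values whole within 0.05. Single ratios were compared by exact permutation tests. The script was tested on simulated data. Shared sequence was counted as stretches of 100 bases of the exons found in another gene. Coordinates are those of the deposited table.

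The genes and lists were chosen with earlier results of these data known. Values in every mouse are given for H2-K1, H2-D1, B2m, H2-Aa, H2-Ab1, H2-Eb1, Cd74, H2-Q10, Ciita and Nlrc5, and for the 3 genes with the lowest p in control against ND, HYA against control and HYA against LA. Other tested genes are named with group levels, and from each list the 3 with the highest means. The values of H2-M2, H2-Q2 and other genes under 1 FPKM were chosen for mention after they were seen. Alternatives were TPM, median-ratio size factors, a pseudocount of 0.1, no filter, a fit of only the groups compared, a replicate block, a fold threshold, voom on the fragments of genes with a mean of at least 10, and leaving out each mouse.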

Additional observations from a re-analysis of the deposited data

How the results depend on the processing

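No call changed sign under any alternative. Of the 15 genes called in control against ND, 7 (H2-Q1, H2-Q10, H2-K2, H2-T-ps, H2-D1, H2-M3 and Tap2) passed in all 12 fits without a mouse and in all 7 other fits, as did 3 of 3 for HYA against ND and 5 of 9 for LA against ND. Leaving out each mouse gave 8 to 17 genes for control against ND, 0 to 1 for HYA against control, 0 to 1 for HYA against LA, 3 to 4 for HYA against ND, 5 to 13 for LA against ND (5 without LA mouse 3) and 0 for LA against control. With the fold threshold 1 gene remained for control, for HYA and for LA against ND. TPM gave 1 gene for HYA against control, 7 for HYA against ND and 21 for LA against ND, and voom gave 1 for HYA against LA. Class medians moved under TPM by more than the SD over the 3 mice of the first group named in the comparison. That SD leaves out the spread within the second group. For control against ND they became 0.50 (classical), 0.61 (non-classical) and 0.44 (machinery). For HYA against control they became -0.20, -0.20 and -0.24, and for HYA against LA -0.12 (classical) and -0.092 (non-classical), both of which were above 0 before. HYA against ND gave 0.30 (classical) and 0.18 (machinery), and LA against ND gave 0.42, 0.57, 0.34 and, for class II, 0.90. A pseudocount of 0.1 moved the non-classical median for control against ND to 0.48. The cause of these shifts was not tested beyond the scaling itself. With the replicate block 17 genes passed for control against ND, 3 for HYA against ND, 12 for LA against ND and 0 for the rest. The replicate numbers are shared by label only, since 3 of 18 pairs of mice with the same number correlated above 0.1 (range -0.40 to 0.29) and 6 of 12 mice correlated best with their own number. Depth limits the genes under 1 FPKM.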
